A study of Mus musculus with 8 samples.

Results

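The constitutive proteasome subunits were taken as every non-control probe whose gene name is Psma, Psmb, Psmc or Psmd followed by a number, without the interferon-inducible catalytic subunits Psmb8, Psmb9 and Psmb10. This gave 36 gene names and 57 probes, of 27398 gene names and 41174 probes on the array. Psmb11, a catalytic subunit known from the thymic cortex, had 2 probes that were not well above background on any array. The other 35 genes were well above background on all 8 arrays and were tested, with 53 probes that passed the filter on dim probes. The name rule also takes in Psma8, an alpha subunit known from male germ cells, and the assembly chaperones Psmd5, Psmd9 and Psmd10, so the label fits those of the 35 less closely.

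Dendritic cells were grown from total bone marrow of male C57BL/6Jax mice in GM-CSF, a growth factor, at 40 ng/mL for 7 days. Cells were wild type (WT) or carried a knockout (KO) of the microRNA miR-155, and some received 100 ng/mL lipopolysaccharide (LPS), a bacterial cell wall component, for 16 h. The 4 groups, with 2 arrays each, were unstimulated WT and unstimulated KO cells sorted as CD86-, and LPS-treated WT and LPS-treated KO cells sorted as CD86+ and described as adherent. LPS and unstimulated cells therefore also differ in the sort gate. The labels give neither the mice's age nor the construction of the KO allele, nor do they state if the replicates are different mice or cultures, so that p-values measure the spread between these samples, which may be technical. No probe carried the name of the miR-155 host gene, and its level was not analysed here. Of the mature strands of miR-155, the 5p strand is shown with its seed, bases 2 to 8, in capitals, from RefSeq at GRCm38.p6 chr16:84714143-84714165.
mmu-miR-155-5p: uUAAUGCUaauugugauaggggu

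The proteasome degrades proteins tagged with ubiquitin. Its 20S core is a stack of rings, in which alpha subunits (Psma) guard the entrance and beta subunits (Psmb) line the chamber and hold the protease sites, and its 19S cap (Psmc ATPases and Psmd subunits) binds, unfolds and feeds in the substrate. In dendritic cells its peptides supply MHC class I presentation, and activated cells are known to exchange the constitutive protease subunits Psmb6, Psmb7 and Psmb5 for the inducible Psmb9, Psmb10 and Psmb8.

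Per array, 50.8% to 58.3% of spots passed the scanner's background test and 0 spots were saturated. The number of arrays limits the precision. LPS and unstimulated arrays separated along the leading principal component (75.55% of variance), and replicate numbers 1 and 2 along the next (9.57%). All 9 dendritic cell markers were tested. The summed linear signal of those markers, in units of each array's 75th percentile, ranged from 949 to 1310 in unstimulated WT, 1110 to 1560 in WT LPS, 1080 to 1250 in unstimulated KO and 1340 to 1550 in KO LPS. Of the T cell, B cell and red cell precursor markers, Cd3d and Cd3g, Cd79a, Ms4a1 and Pax5, and Alas2 and Klf1 were not well above background in both arrays of any group. The other 4 T cell markers had sums of 0.304 to 0.368 and 0.229 to 0.332 in WT and of 0.295 to 0.366 and 0.257 to 0.309 in KO, unstimulated and LPS, with 1 called higher and 2 lower in each genotype. The other 2 B cell markers, Cd79b and Ighm, had sums of 0.813 to 4.92 and 0.0282 to 0.098 in WT and of 0.689 to 4.62 and 0.0553 to 0.0872 in KO, with Ighm called lower in both. The other 3 red cell markers had sums of 0.283 to 0.362 and 0.539 to 7.86 in WT and of 0.209 to 0.309 and 0.798 to 6.47 in KO, with 1 called higher in each. Of 6 tested mast cell and basophil markers, 4 were called lower and 1, Hdc, higher in each genotype, with sums of 0.884 to 3.55 and 14.8 to 115 in WT and of 1.06 to 1.99 and 5.78 to 113 in KO. Of 5 tested neutrophil markers 1 was called higher in each genotype and 1 lower in KO, with sums of 9.77 to 10 and 9.27 to 10 in WT and of 4.58 to 9.23 and 8.37 to 10.1 in KO. Markers of cycling cells fell, with 6 of 7 called lower in each genotype, and their sum went from 62 to 71.2 in unstimulated WT to 7.87 to 14.8 in WT LPS, and from 36.6 to 71.6 in unstimulated KO to 17.2 to 18.5 in KO LPS. Of the macrophage markers, 5 of 9 were called lower and 1 higher in each genotype, with sums of 174 to 255 and 257 to 276 in WT and of 186 to 239 and 167 to 345 in KO, unstimulated and LPS. Stromal markers were called higher in 4 of 5 in WT and 3 of 5 in KO, with sums of 0.266 to 0.594 and 4.34 to 8.21 in WT and of 0.273 to 0.695 and 5.22 to 14 in KO, and Col1a1 and Col3a1 were not well above background. Over all genes, 9.48% were called higher and 10.7% lower in WT, and 10.4% and 10.5% in KO. The part of these marker changes in the proteasome values was not tested. In such bulk samples, fewer cells of a type and less RNA per cell cannot be told apart.

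The first comparison asked how proteasome subunit transcripts differed between LPS-treated and unstimulated cells. Most subunits read slightly higher after LPS, with a median log2 difference of 0.44 in WT and 0.46 in KO, and a few rose further. The direction in KO depended on the background correction. With normexp, a model-based correction, the KO median was −0.30 with 8 of 35 subunits above 0, and the WT median 0.49. That correction left KO LPS replicate 2 with a 5th percentile of 1840 intensity units, against at most 89.8 on the other arrays. The part of this array in the KO value was not tested. Plain subtraction of the local background, added after seeing the data, gave a KO median of 0.45 with 29 of 35 above 0. Psmd10, a chaperone that helps to build the 19S cap and is also known as gankyrin, and Psma5, an alpha ring subunit, rose in both genotypes. Psmb6, which carries the caspase-like protease site, and Psmd11, a scaffold of the 19S lid that promotes 26S assembly, rose in KO, and both also rose in the average over genotypes. In WT Psmb6 differed by 0.71 ± 0.26 and Psmd11 by 0.98 ± 0.28, neither of them called. Values are log2 differences ± SE from one limma fit with n = 2 arrays per group, and called means an adjusted p below 0.05 over the whole array's tested genes.

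In WT, 2 of 35 subunits were called higher, Psma5 and Psmd10, where 9.48% of all 15401 genes were called higher. No subunit was called lower, against 10.7% of all genes, and the 5 subunits (14.3%) with an unadjusted p under 0.05, against 34.7% of all genes, were all higher. In KO, 4 of 35 subunits (11.4%) were called higher, Psma5, Psmb6, Psmd10 and Psmd11, against 10.4% of all genes, and 0 lower, against 10.5%. In KO 7 subunits (20%) had an unadjusted p under 0.05, against 34.2% of all genes, and all 7 were higher. The share called higher was below that of all genes in WT (5.71%) and near it in KO.

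The LPS response averaged over both genotypes uses all 8 arrays and has smaller errors. These errors take the arrays as independent. Replicate differences over all genes went together between genotypes, with a correlation of 0.69 after LPS and 0.50 unstimulated. The averaged errors and adjusted p may therefore be too small. Here 9 of 35 subunits (25.7%) were called higher, against 18.4% of all genes, and 0 lower, against 19%; 14 (40%) had an unadjusted p under 0.05, against 47.5% of all genes, and all were higher. The 9 were Psma2, Psma5, Psma6, Psmb6, Psmc1, Psmc5, Psmc6, Psmd10 and Psmd11. A fit with the slide as a block called 4 of them, Psma5, Psmb6, Psmd10 and Psmd11, quantile normalization called 5, and normexp called Psmd10 alone. The median difference was 0.44 over the subunits and 0.03 over all genes, and 30 of 35 subunits (85.7%) lay above 0 compared with 51.5% of all genes. The subunits were bright, at a median percentile of 93.1 of mean signal among the tested genes, with 23 of 35 above the 90th. The part of brightness in this shift was not tested. Only 3 subunits differed by more than 1 on the log2 scale, whereas 31.6% of all genes did so in either direction. The subunit median was 0.46 with the slide block, 0.31 after quantile normalization and 0.37 to 0.52 with 1 array left out. With normexp it was 0.06, against 0.11 over all genes, with 22 of 35 subunits above 0, so the shift was not seen there. That fit includes KO LPS replicate 2 with the high 5th percentile given above.

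**Figure D1:**
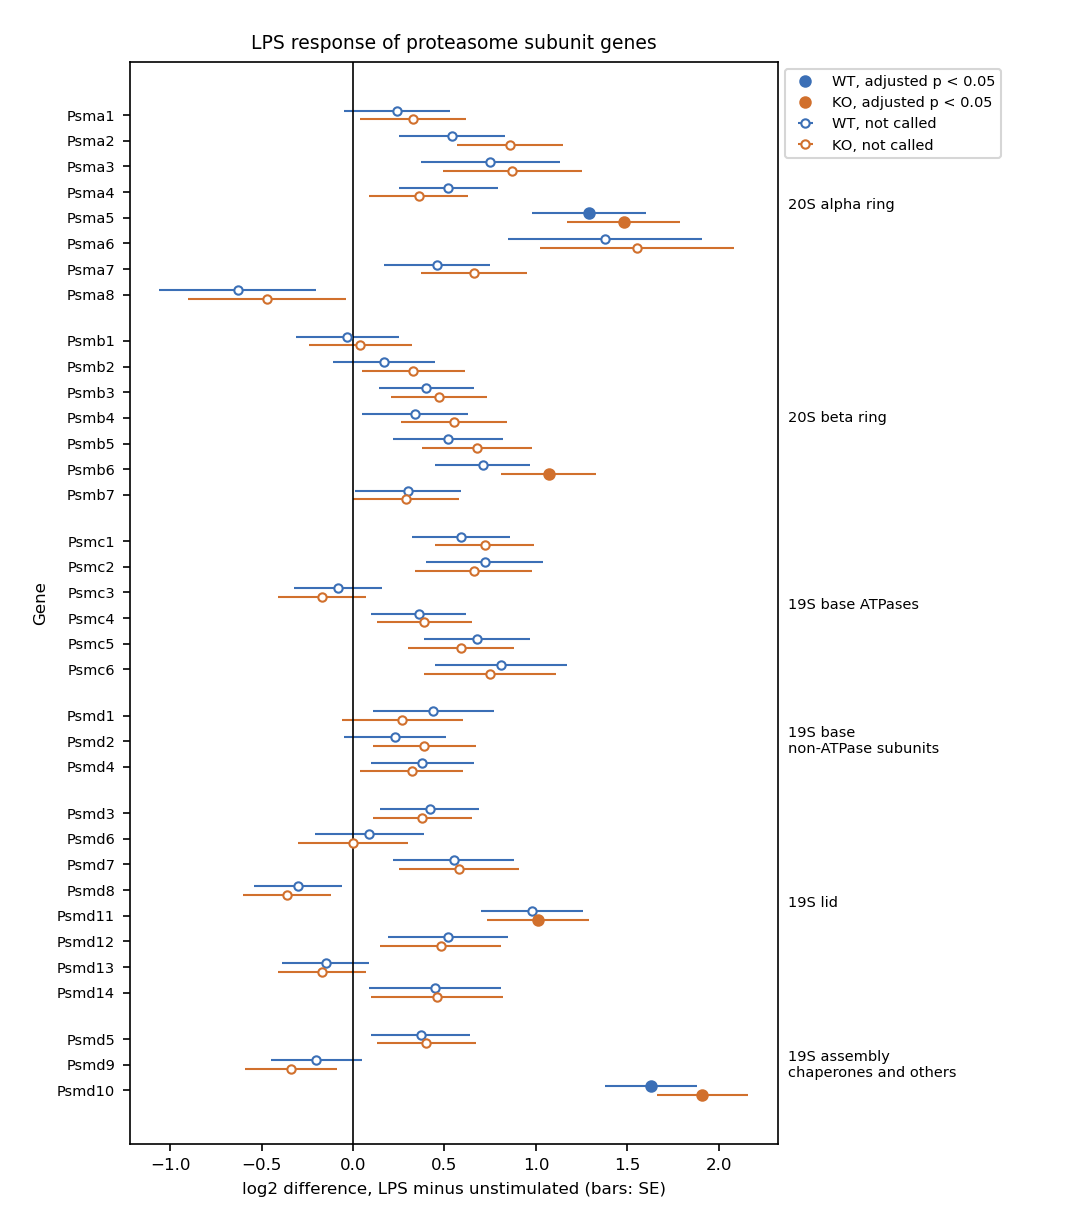
Log2 difference between LPS-treated and unstimulated cells (x axis) for the 35 tested subunits (y axis, ordered by their place in the complex), in WT (blue) and KO (orange); points are limma estimates from 2 arrays per group, bars are SE, and filled points passed an adjusted p of 0.05. Most points lie right of 0, with Psma5, Psma6 and Psmd10 beyond 1 in both genotypes and Psma8, Psmc3, Psmd8, Psmd9 and Psmd13 left of 0 in both.

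The alpha ring had 3 of 8 genes called higher in the averaged response, with a median of 0.63. For this and each later part of the complex, the share of all genes called in that response was 18.4% higher and 19% lower. Array values are given as scaled log2 signal, the log2 processed signal minus the array's 75th percentile, replicate 1 before replicate 2. Psma5 had 4.90 and 4.83 in unstimulated WT, 4.93 and 4.25 in unstimulated KO, 5.96 and 6.35 in WT LPS, and 5.98 and 6.16 in KO LPS. All 4 LPS arrays lay about 1 unit or more above all 4 unstimulated arrays. Psma5 rose by 1.39 ± 0.22 on average (2.61-fold, adjusted p = 0.00339), by 1.29 ± 0.31 in WT (adjusted p = 0.0304) and by 1.48 ± 0.31 in KO (adjusted p = 0.0183). With the slide as a block the averaged rise was 1.31 (adjusted p = 0.021), whereas the calls within WT (1.22, adjusted p = 0.0793) and KO (1.41, adjusted p = 0.0533) were lost. The call within WT was also lost without any 1 of the 4 WT arrays or either KO LPS array, at differences of 1.10 to 1.49, and that within KO without KO unstimulated replicate 2 or either KO LPS array.

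Psma6, another alpha subunit, had the widest spread of the called genes. It measured 5.14 and 4.76 in unstimulated WT, 5.09 and 4.35 in unstimulated KO, 5.67 and 7.00 in WT LPS, and 5.87 and 6.68 in KO LPS. Groups did not overlap, but replicate 2 lay well above replicate 1 in both LPS groups. Psma6 rose by 1.47 ± 0.37 (2.77-fold, adjusted p = 0.0208), and the call was lost with the slide block (1.61, adjusted p = 0.055) and without WT unstimulated replicate 2 (1.37), KO unstimulated replicate 2 (1.28) or KO LPS replicate 2 (1.26). Its probe lies at mm9 chr12:56511127-56511186.

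Psma2, also an alpha subunit, had 6.27 and 6.30 in unstimulated WT, 6.35 and 5.72 in unstimulated KO, 6.72 and 6.93 in WT LPS, and 6.86 and 6.92 in KO LPS. LPS and unstimulated arrays did not overlap, and the lowest value was KO unstimulated replicate 2. Psma2 rose by 0.70 ± 0.20 (1.62-fold, adjusted p = 0.0351). The call was lost with the slide block (0.59, adjusted p = 0.139) and when any array other than KO unstimulated replicate 1 was left out, at differences of 0.54 to 0.75.

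The remaining alpha subunits were not called on the probe used. Psma3 differed by 0.81 ± 0.27 (adjusted p = 0.0517), Psma7 by 0.56 ± 0.20, Psma4 by 0.44 ± 0.19 and Psma1 by 0.28 ± 0.21. Psma8, known as the alpha subunit of male germ cells, was dim and had the lowest difference of the subunits, −0.55 ± 0.30 (adjusted p = 0.194).

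In the beta ring 1 of 7 tested genes was called, Psmb6, and the median was 0.43. Psmb6 had 5.50 and 5.48 in unstimulated WT, 5.29 and 4.87 in unstimulated KO, 6.07 and 6.32 in WT LPS, and 6.21 and 6.08 in KO LPS. All LPS arrays were higher than all unstimulated arrays, and the lowest 2 were the unstimulated KO arrays. Psmb6 rose by 0.89 ± 0.19 (1.85-fold, adjusted p = 0.0103), with 0.71 ± 0.26 in WT (adjusted p = 0.109) and a rise of 1.07 ± 0.26 in KO (adjusted p = 0.0313). The averaged rise was 0.84 with the slide block (adjusted p = 0.047), whereas the KO call did not pass there (1.02, adjusted p = 0.0778) nor without either WT LPS array, KO unstimulated replicate 2 or either KO LPS array.

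The other constitutive protease subunits were not called. Psmb5, with the chymotrypsin-like site, had 5.30 and 4.87 in unstimulated WT, 4.88 and 4.77 in unstimulated KO, 5.37 and 5.83 in WT LPS, and 5.34 and 5.65 in KO LPS. The groups were separated by less than 0.1, between WT unstimulated replicate 1 and KO LPS replicate 1, and the difference was 0.60 ± 0.21 (adjusted p = 0.0631). Psmb7, with the trypsin-like site, had 4.18 and 3.87 in unstimulated WT, 3.77 and 4.10 in unstimulated KO, 4.11 and 4.55 in WT LPS, and 4.10 and 4.35 in KO LPS. Its groups overlapped, and the difference was 0.30 ± 0.21 (95% interval −0.19 to 0.79). The structural beta subunits Psmb4, Psmb3 and Psmb2 differed by 0.44 ± 0.20, 0.43 ± 0.19 and 0.25 ± 0.20, and Psmb1 by 0.00 ± 0.19, none of them called.

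**Figure D2:**
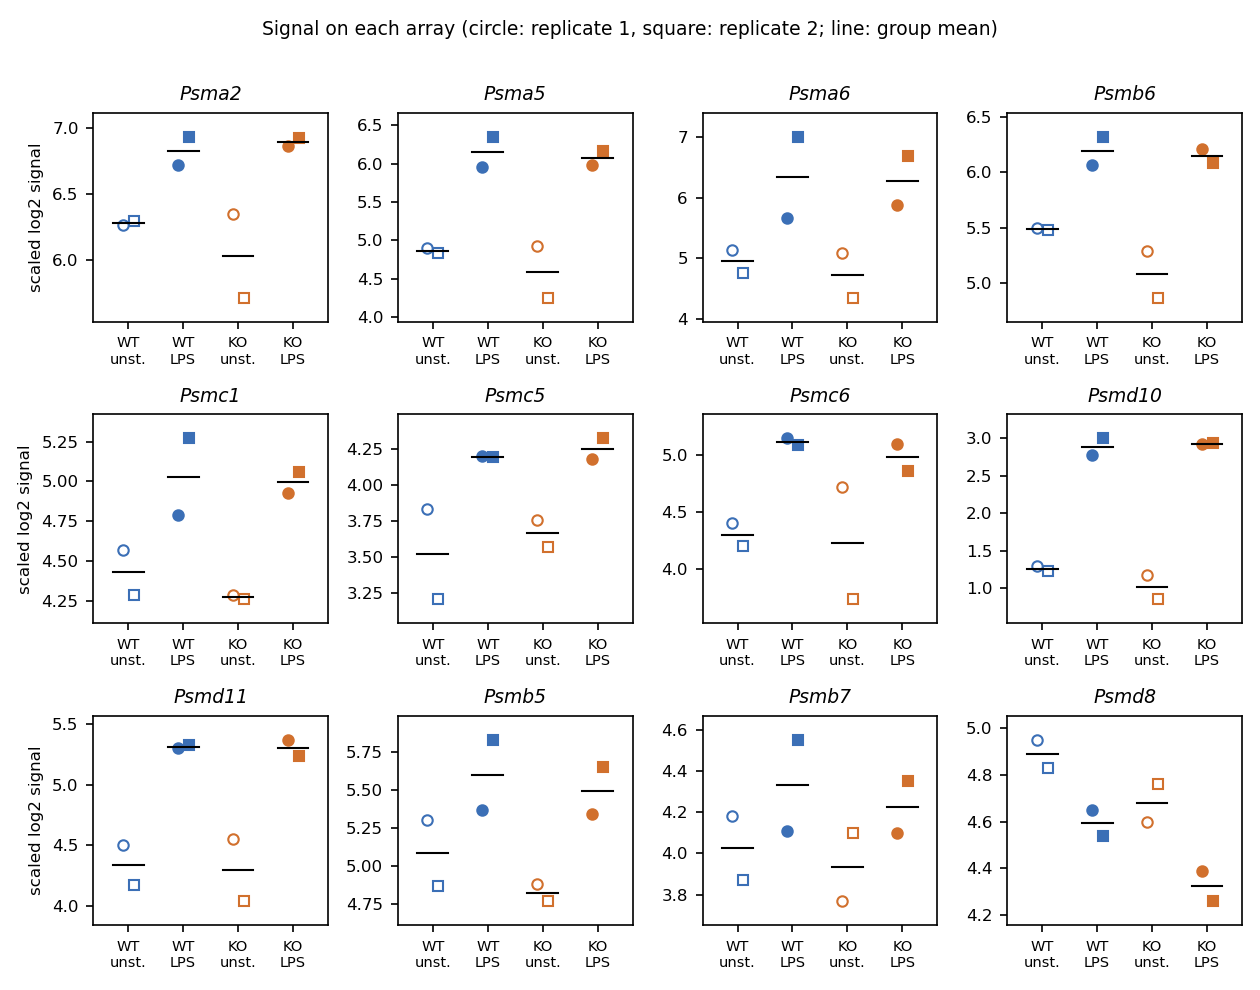
Scaled log2 signal (y axis, a separate range in each panel) of the 9 subunits called in the averaged LPS response and of Psmb5, Psmb7 and Psmd8, on each of the 8 arrays by group (x axis); circles are replicate 1, squares replicate 2, and lines are group means. Psmd10 steps from at most 1.29 to at least 2.78, Psmb7 overlaps between states, and Psmd8 lies lower after LPS within each genotype.

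The base of the 19S cap is a ring of ATPases that unfold the substrate, and 3 of its 6 genes were called, with a median of 0.64. Psmc1 had 4.57 and 4.29 in unstimulated WT, 4.29 and 4.26 in unstimulated KO, 4.79 and 5.27 in WT LPS, and 4.93 and 5.06 in KO LPS, with no overlap. It rose by 0.66 ± 0.19 (adjusted p = 0.0362). Psmc5 had 3.83 and 3.21 in unstimulated WT, 3.76 and 3.57 in unstimulated KO, 4.20 and 4.19 in WT LPS, and 4.18 and 4.32 in KO LPS. WT unstimulated replicate 2 was the lowest, states did not overlap, and Psmc5 rose by 0.63 ± 0.20 (adjusted p = 0.0480). Psmc6 had 4.40 and 4.20 in unstimulated WT, 4.72 and 3.74 in unstimulated KO, 5.14 and 5.08 in WT LPS, and 5.09 and 4.86 in KO LPS.
The 2 unstimulated KO arrays of Psmc6 spanned almost 1 unit but stayed below the LPS arrays, and Psmc6 rose by 0.78 ± 0.25 (adjusted p = 0.0497). These 3 calls were lost with the slide block, where Psmc1, Psmc5 and Psmc6 differed by 0.77, 0.58 and 0.52 (adjusted p = 0.0603, 0.154 and 0.214), and after quantile normalization. Each was also lost when most single arrays were left out: Psmc1 kept its call only without WT LPS replicate 1, Psmc5 only without WT unstimulated replicate 1, and Psmc6 only without KO unstimulated replicate 1. Psmc2 just missed the threshold (0.69 ± 0.23, adjusted p = 0.050). Psmc4 differed by 0.38 ± 0.19 and Psmc3 by −0.12 ± 0.17, the latter lying below 0 in both genotypes.

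The non-ATPase base subunits did not pass the test. Psmd1 and Psmd2, the large scaffold proteins of the base, differed by 0.36 ± 0.24 and 0.31 ± 0.19, and Psmd4, a ubiquitin receptor, by 0.35 ± 0.20.

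In the lid, which holds the deubiquitinating enzyme, 1 of 8 genes was called, with a median of 0.43. Psmd11 had 4.50 and 4.17 in unstimulated WT, 4.55 and 4.04 in unstimulated KO, 5.30 and 5.33 in WT LPS, and 5.37 and 5.24 in KO LPS. The LPS arrays lay within 0.2 of each other and all above the unstimulated arrays. Psmd11 rose by 1.0 ± 0.20 (2.0-fold, adjusted p = 0.00835), and by 0.88 with the slide block (adjusted p = 0.0443). In KO it rose by 1.01 ± 0.28 (adjusted p = 0.0457), a call that was lost when any array other than KO unstimulated replicate 1 was left out, and in WT the difference was 0.98 ± 0.28 (adjusted p = 0.0513).

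Other lid genes were not called. Psmd7 differed by 0.56 ± 0.24, Psmd12 by 0.50 ± 0.23, Psmd14, the deubiquitinase itself, by 0.45 ± 0.25, Psmd3 by 0.40 ± 0.19 and Psmd6 by 0.05 ± 0.21. Psmd8 and Psmd13 lay below 0 in both genotypes, at −0.33 ± 0.17 (adjusted p = 0.169) and −0.16 ± 0.17. For Psmd8 the arrays read 4.95 and 4.83 in unstimulated WT, 4.60 and 4.76 in unstimulated KO, 4.65 and 4.54 in WT LPS, and 4.39 and 4.26 in KO LPS, so that unstimulated KO and WT LPS overlapped.

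Of 3 genes for chaperones that assist cap assembly, Psmd10 was the one called. It had 1.29 and 1.23 in unstimulated WT, 1.18 and 0.85 in unstimulated KO, 2.78 and 3.0 in WT LPS, and 2.92 and 2.94 in KO LPS. The gap between the highest unstimulated and the lowest LPS array exceeded 1, and the LPS arrays of both genotypes lay together. Psmd10 rose by 1.77 ± 0.18 (3.41-fold, adjusted p = 0.000511), by 1.63 ± 0.25 in WT (adjusted p = 0.00628) and by 1.91 ± 0.25 in KO (adjusted p = 0.00315). Its averaged call was kept in all 20 alternative analyses, at differences of 1.32 to 1.85. The calls within a genotype were each lost in 3 alternatives, both normexp corrections (1.58 in WT and, at most, 1.08 in KO) and the fit within 1 slide (1.74 in WT, adjusted p = 0.0861, and 1.75 in KO, adjusted p = 0.0801). The other assembly factors, Psmd5 and Psmd9, differed by 0.38 ± 0.19 and −0.27 ± 0.18 and were not called.

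Probe sequences are given for the members with the clearest or the most discordant readings, as they stand in the scanner files with mm9 positions and without capitals, since no base is singled out. The Psmd10 probe lies at chrX:137483747-137483806 and the Psmb6 probe at chr11:70341014-70341073. The Psma3 probe used in the fit covers chr12:72079794-72084356, so its 60 bases are split over an exon junction, and the next brightest Psma3 probe, a dim one, lies inside the gap that it skips, at chr12:72079870-72079929.
Psmd10: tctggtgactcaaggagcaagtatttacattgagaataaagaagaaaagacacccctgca
Psmb6: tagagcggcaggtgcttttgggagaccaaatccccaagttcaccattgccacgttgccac
Psma3 across the junction: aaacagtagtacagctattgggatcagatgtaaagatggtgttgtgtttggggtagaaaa
Psma3 inside the gap: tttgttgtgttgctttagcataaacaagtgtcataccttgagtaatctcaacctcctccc

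When all 53 probes were fitted separately, 11 (20.8%) were called higher in the averaged response, against 18.4% of all probes. Probes of the same gene mostly gave like values, and their calls differed for Psma3, Psmc5, Psmc6 and Psmd7. The Psma3 probe inside the gap had −1.56 and −1.11 in unstimulated WT, −1.06 and −1.0 in unstimulated KO, −0.35 and −0.20 in WT LPS, and −0.04 and −0.34 in KO LPS. It rose by 0.95 ± 0.20 (adjusted p = 0.00901), where the junction probe gave 0.81 ± 0.27 (adjusted p = 0.0516). A Psmd7 probe designed on the cDNA clone AK158379, at mm9 chr8:110111574-110111633, read −1.99 and −1.57 in unstimulated WT, −1.94 and −2.14 in unstimulated KO, −0.80 and −0.68 in WT LPS, and −0.70 and −0.73 in KO LPS.
For this Psmd7 probe the states were wider apart than its replicates, and it rose by 1.18 ± 0.19 (adjusted p = 0.00312). The brighter Psmd7 probe gave 0.56 ± 0.24 and the remaining one 0.62 ± 0.25, neither called. Psmb3 showed the opposite pattern, with 0.43 ± 0.19 for its brighter probe and 0.12 ± 0.18 for the other.

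**Figure D3:**
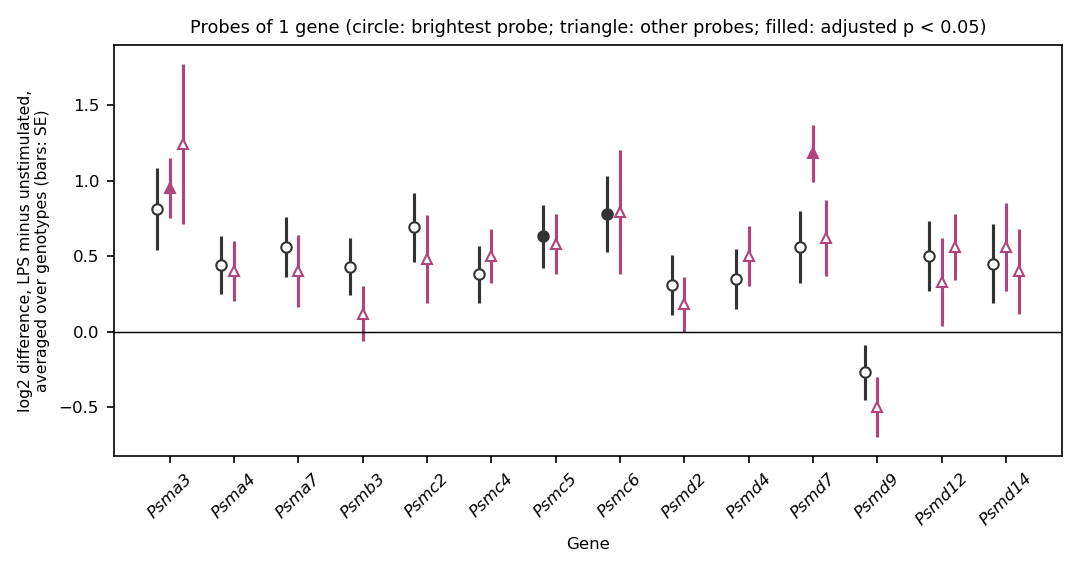
Averaged log2 LPS difference (y axis) of each probe for the 14 subunit genes with several probes past the filter (x axis); circles are the brightest probe of the gene, which the gene-level fit used, triangles are its other probes, bars are SE, and filled symbols passed an adjusted p of 0.05 over all probes. The Psmd7 triangle at 1.18 stands above that gene's other probes, and both Psmd9 probes lie below 0.

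The inducible subunits were compared with the constitutive ones that they replace. Psmb8, Psmb9, Psmb10 and the activator subunits Psme1 and Psme2 were called higher in WT and in KO, and rose on average by 1.63 ± 0.19, 1.97 ± 0.31, 1.60 ± 0.22, 1.74 ± 0.21 and 2.16 ± 0.20. With normexp none of the 5 was called within a genotype (1.62 to 2.16 in WT, 0.67 to 1.37 in KO), and Psmb9, Psme1 and Psme2 were called on average. The difference between an inducible and a constitutive probe on the same array is free of the scaling between arrays, and only its change is read, since 2 probes differ in brightness for other reasons. Psmb9 minus Psmb6 was −1.23 and −0.76 in unstimulated WT, −1.53 and −0.39 in unstimulated KO, −0.15 and 0.45 in WT LPS, and −0.33 and 0.46 in KO LPS. The states came within 0.1 of each other without overlap, and the mean changed from −0.98 to 0.11, a shift of 1.09.

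Psmb10 minus Psmb7 went from 1.85 to 2.67 on the unstimulated arrays to 3.42 to 3.65 on the LPS arrays, a shift of 1.30. Psmb8 minus Psmb5 went from −0.18 to 0.45 to 0.90 to 1.45, a shift of 1.03. In all 3 pairs every LPS array exceeded every unstimulated array (two-sided exact permutation test over 4 against 4 arrays, p = 0.0286 each, the smallest that 70 arrangements can give, and 0.0286 after adjustment over the 3 pairs). When arrays were exchanged only within a genotype, p was 0.0556 for each pair, the smallest that those 36 arrangements can give, so that test cannot pass 0.05. Both tests take the arrays as exchangeable. Replicate numbers went together between genotypes within a state over all genes, so the arrays are not independent and p may be too small. Psmb9 minus Psmb6 was higher on replicate 2 in all 4 groups. The shifts were 1.14, 1.17 and 1.17 in WT and 1.03, 1.43 and 0.90 in KO, for Psmb9, Psmb10 and Psmb8 in that order. Over 20 alternatives, normexp included, the shift ran from 0.80 to 1.53 for Psmb9, 1.15 to 1.47 for Psmb10 and 0.90 to 1.81 for Psmb8, each with its partner.

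**Figure D4:**
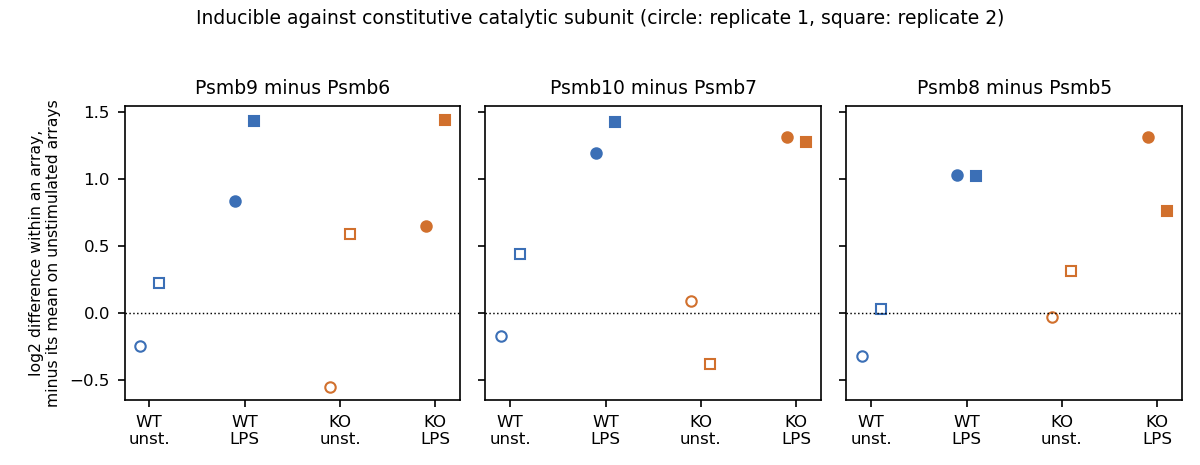
Log2 difference between an inducible and its constitutive partner subunit on the same array, minus the mean of that difference on the 4 unstimulated arrays (y axis), by group (x axis); each symbol is 1 array, a circle for replicate 1 and a square for replicate 2. In each panel all 4 LPS arrays lie above all 4 unstimulated arrays, most narrowly for Psmb9 and Psmb6.

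Other genes of the pathway moved less uniformly in the averaged response. In that response 18.4% of all genes were called higher and 19% lower. Of 8 further activators, inhibitors and core assembly factors 1 was called, Pomp, the maturation factor of the 20S core, which rose by 0.76 ± 0.22 (adjusted p = 0.0319), a call lost with the slide block (0.59, adjusted p = 0.141). Psme3 and Psme4, alternative activators, differed by −0.01 ± 0.20 and 0.54 ± 0.18 without a call. Of 11 tested proteins associated with the cap, Ubqln1, a shuttle for ubiquitinated proteins, rose by 1.05 ± 0.21 and AI314180, the proteasome adaptor Ecm29, by 0.88 ± 0.22, whereas Ddi2, a protease known to activate the factor Nfe2l1, fell by 1.63 ± 0.19 (adjusted p = 0.00104). The call of AI314180 was lost with the slide block (0.66).

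Of 9 ubiquitin, activating-enzyme and Vcp-complex genes 3 were called, all higher, where 18.4% of all genes were called higher and 19% lower. Uba1, the main ubiquitin-activating enzyme, rose by 1.06 ± 0.24, Nploc4, a cofactor of the Vcp unfoldase, by 0.82 ± 0.17, and Ufd1l by 0.64 ± 0.21. With the slide block Uba1 (1.05) and Ufd1l (0.43) were not called. Of 13 tested factors known to control proteasome genes, 4 were called higher and 1 lower. Nfya, Nfyb and Nfyc, the genes of NF-Y, were not called. Nfe2l1, which drives proteasome gene transcription when proteasome activity is low, rose by 0.72 ± 0.18 (adjusted p = 0.0216). That call was lost with the slide block (0.77, adjusted p = 0.0575). The small Maf partners Mafg and Maff rose by 1.35 ± 0.18 and 2.25 ± 0.50, and Keap1, the inhibitor of Nfe2l2, by 0.92 ± 0.30. Bach1, a repressor that competes at the same DNA element, fell by 1.12 ± 0.25 on average, with −1.64 ± 0.35 in WT (adjusted p = 0.0192) and −0.59 ± 0.35 in KO (adjusted p = 0.283), though the difference between the responses was not called (1.05 ± 0.49). Nfe2l2 differed by 0.62 ± 0.20 (adjusted p = 0.0517), with 0.25 in WT and 0.99 in KO, neither called. With normexp Ddi2 (−1.90) and Maff (1.83) kept their calls, and the other calls of these lists were lost, among them those of Ubqln1 (0.71), Uba1 (0.72), Mafg (0.92) and Bach1 (−1.27). With 1 array left out, the call was lost for 7 of 8 arrays for Pomp and Ufd1l, 6 for Keap1 and 5 for Nfe2l1 and AI314180.

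Promoters were read because Nfe2l1 and Nfe2l2 bind antioxidant response elements and NF-Y binds CCAAT boxes. RefSeq promoters at GRCm38.p6, 250 bases before to 50 after the start, were found for 29 of 36 subunit genes, 31 promoters in all. The core TGACNNNGC, on either strand, was present in 16.1% of these and in 12.4% of all 32851 promoters of that length, in Psmb5, Psmb6, Psmc6, Psmd9 and Psmd12. CCAAT, on either strand, was present in 38.7% against 37.4%. These shares lie close together, and a match is a string of letters, not a measured site. The promoters of Psmb6 (chr11:70525107-70525406, plus strand) and Psmc6 (chr14:45329574-45329873, plus strand), the called genes with the core, and of Psmd10 (chrX:140956662-140956961, minus strand), with 3 CCAAT boxes, are shown with these matches in capitals. Counted from the start that sets each window, the match begins at −9 in Psmb6 and at −227 in Psmc6. The annotated Psmb6 gene begins earlier, at chr11:70525324, and the Psmb6 match lies downstream of that base.
Psmb6: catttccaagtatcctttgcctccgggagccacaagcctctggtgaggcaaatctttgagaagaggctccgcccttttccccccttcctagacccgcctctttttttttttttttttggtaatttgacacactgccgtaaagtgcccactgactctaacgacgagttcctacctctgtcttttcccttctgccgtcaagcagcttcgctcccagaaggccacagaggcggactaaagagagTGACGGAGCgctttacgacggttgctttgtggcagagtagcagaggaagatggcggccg
Psmc6: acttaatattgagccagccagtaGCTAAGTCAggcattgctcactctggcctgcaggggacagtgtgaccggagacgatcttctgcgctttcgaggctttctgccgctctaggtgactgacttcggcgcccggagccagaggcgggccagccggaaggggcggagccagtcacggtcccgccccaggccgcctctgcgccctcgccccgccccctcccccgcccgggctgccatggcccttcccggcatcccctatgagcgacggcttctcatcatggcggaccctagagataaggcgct
Psmd10: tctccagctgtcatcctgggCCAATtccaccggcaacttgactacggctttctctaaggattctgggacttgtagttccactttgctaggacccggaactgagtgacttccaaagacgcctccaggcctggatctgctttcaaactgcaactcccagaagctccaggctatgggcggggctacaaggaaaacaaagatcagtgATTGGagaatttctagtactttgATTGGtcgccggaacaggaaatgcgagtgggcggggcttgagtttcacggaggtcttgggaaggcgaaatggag

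The second comparison asked whether subunit transcripts differed between KO and WT cells. In the unstimulated state 0 of 35 subunits were called (0.24% of all genes), and 0 had an unadjusted p under 0.05. The differences, KO minus WT, ran from −0.41 for Psmb6 to 0.26 for Psmd1, with a median of −0.16, compared with −0.04 over all genes. Of the 35 subunits 32 lay below 0 and 3 (8.57%) above 0, compared with 43.5% of all genes above 0. This tilt moved with single arrays: the median was −0.00 without WT unstimulated replicate 1 and −0.01 without KO unstimulated replicate 2, but −0.32 without KO unstimulated replicate 1 and −0.32 within slide 1. After quantile normalization it was −0.03, and with normexp −0.11, against −0.13 over all genes.

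After LPS 0 of 35 subunits were called between genotypes either, at 0.026% of all genes, with 0 at an unadjusted p under 0.05. Differences ran from −0.30 for Psmd3 to 0.09 for Psmd1 with a median of −0.10. Here 29 of 35 lay below 0 and 6 (17.1%) above 0, compared with 48.9% of all genes above 0. The median was 0.02 within slide 2 and without WT LPS replicate 2, and −0.24 without WT LPS replicate 1. It was −0.85 and −0.88 with the 2 normexp corrections, where 1 of 35 subunits lay above 0. Both corrections left KO LPS replicate 2 with a 5th percentile of 1840 and 1900 intensity units, against at most 89.8 on the other arrays. With plain local background subtraction the median was −0.11. For Psmb6 the 95% interval of KO minus WT was −1.04 to 0.22 unstimulated and −0.68 to 0.58 after LPS, for Psmb5 −0.97 to 0.44 and −0.81 to 0.60, and for Psmb7 −0.79 to 0.60 and −0.80 to 0.58. The median half-width of these unadjusted intervals over the subunits was 0.68 on the log2 scale in both states.

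**Figure D5:**
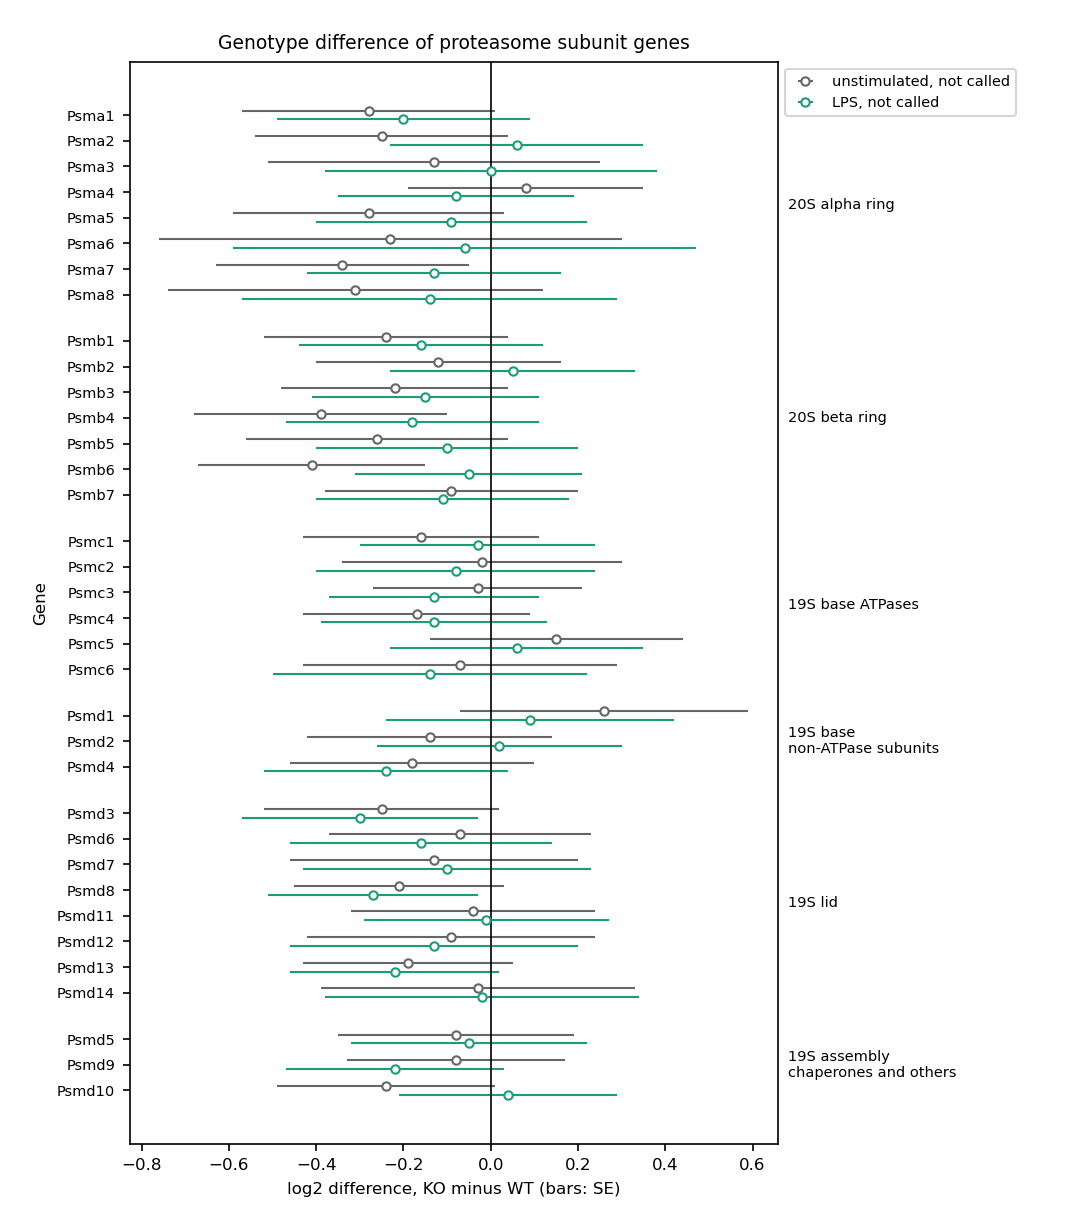
Log2 difference, KO minus WT (x axis), of the 35 tested subunits (y axis), in unstimulated cells (grey) and after LPS (green); points are limma estimates from 2 arrays per group, bars are SE, and open points were not called. All points lie between −0.41 and 0.26.

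The LPS responses of both genotypes were compared by the difference between them. For this difference 0 of 35 subunits were called, against 0.0455% of all genes, and 0 had an unadjusted p under 0.05, with a median of 0.03 over the subunits and 0.05 over all genes. This median ran from −0.12 without WT unstimulated replicate 1 to 0.22 without WT unstimulated replicate 2. It was −0.76 and −0.78 with the 2 normexp corrections, with 1 of 35 subunits above 0, and these include KO LPS replicate 2 with its high 5th percentile. With plain local background subtraction it was 0.03. The difference, KO minus WT response, was 0.36 for Psmb6 (95% interval −0.53 to 1.25), 0.28 for Psmd10 (−0.56 to 1.13) and 0.19 for Psma5 (−0.87 to 1.24). The call of Psmb6 and Psmd11 in KO and not in WT is therefore not shown to be a difference between genotypes.

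Replicates within a group also differed as a set. In unstimulated WT, 28 of 35 subunits were higher on replicate 1 than on replicate 2, by a median of 0.31 (−0.11 over all genes), and in unstimulated KO 28 of 35, by 0.31 (−0.01 over all genes). In WT LPS 6 of 35 were higher on replicate 1 (median −0.23) and in KO LPS 13 (median −0.05). The subunit median of an array ranged from 4.02 to 4.45 on unstimulated and from 4.62 to 4.78 on LPS arrays, without overlap. The SD of that median between replicates, pooled over groups, was 0.19. It exceeds the gap between the closest arrays of the LPS and unstimulated states, but not the median averaged LPS difference of 0.44.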

How the data were processed

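RNA of 8 samples was hybridised to 1-colour Agilent arrays with 60-base probes. Scans had been quantified with Agilent Feature Extraction 10.5.1.1, per the file headers. From the deposited intensity columns the processed signal was used, which that software gives after subtracting background. The deposited spot flags, an other unit of 0 or 1, mark spots well above background and outlying spots. The authors' deposited log2 values equal the log2 processed signal minus a constant per array, as checked. The build in the files is mm9.

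The log2 processed signal minus each array's 75th percentile was used, without outlying spots. Probes had to be well above background on each array of some group (23738 probes), and the brightest probe stood for a gene (15401 genes). Group means were estimated in limma 3.58.1 (R 4.3.3; residual df 4 and prior df 2.88), and 6 comparisons were tested, two-sided, with Benjamini-Hochberg adjustment over all genes. The data.table package (1.17.8), pandas 2.3.3 and matplotlib 3.10.9 were also used. The procedure was tested on simulated data with independent noise, which held no slide or replicate effects.

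Slide 1 carried WT unstimulated replicates 1 and 2, KO unstimulated replicate 2 and WT LPS replicate 2, and slide 2 the others. The subunits, gene lists and tests were chosen with earlier results of these data known. Every subunit was named, and array values were given for those called in any comparison and for Psmb5, Psmb6 and Psmb7; of other lists, members called in the averaged response were named. Psmd8 and the discordant Psma3 and Psmd7 probes were added after their values were seen. Alternatives covered background correction, scaling, filter, probe choice, slide, replicate number, variance model and left-out arrays. 1 gene of a pathway list and 2 of the marker lists are not reported here and were left out of those lists' counts. Protein sequences were not used here.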

Additional observations from a re-analysis of the deposited data

How the results depend on the processing

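No called subunit result changed sign, but estimates of subunits that were not called did: 124 of 420 estimates with the 2 normexp corrections, including 46 of 70 in the KO response, and 236 of 3920 with the other alternatives. Of all these, 4198 kept their side of the threshold, 111 lost a call and 31 gained one. The number of subunits called was 2 in WT, 4 in KO and 9 in the averaged response. It was 0, 0 and 1 after normexp background correction, and 0, 0 and 1 after normexp by maximum likelihood, an alternative chosen after seeing the data. Both normexp fits left the 5th percentile of KO LPS replicate 2 at 1840 and 1900 intensity units, against 56.8 to 89.8 on the other arrays, and the KO median was −0.30 instead of 0.46, so that the direction of the KO shift was not kept there. The averaged median was 0.06 with both. Subtraction of the local background with an offset of 50, also added after seeing the data, gave 3, 4 and 12 calls. Quantile normalization called 2 in KO and 5 averaged. Without a filter on dim probes the counts were 1, 2 and 5, and the median of all genes was −0.12 rather than 0.03. With slide as a block they were 1, 1 and 4, within slide 1 WT had 0 and within slide 2 KO had 0, each with few arrays and fewer residual degrees of freedom. With 1 array left out the counts ranged from 1 to 3 in WT, 1 to 5 in KO and 4 to 8 averaged. The lowest averaged counts, 4, came without KO unstimulated replicate 2 or KO LPS replicate 2, and 5 were called without WT unstimulated replicate 2, WT LPS replicate 2 or KO LPS replicate 1. With 1 array left out, averaged calls were gained by Psma3 (1.03, without KO unstimulated replicate 1), Psma7 (0.70, without WT unstimulated replicate 2), Psmc2 (0.85, without WT LPS replicate 1) and Psmd7 (0.75, without WT unstimulated replicate 1). The counts of 0 between genotypes and for the difference between responses stayed at 0 in all alternatives run. The averaged calls of Psma5, Psmb6 and Psmd11 were lost with both normexp corrections and in no other alternative, as were those of Psmb8 and Psmb10.

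Groups share replicate numbers, and the main fit held no replicate term. The correlation of replicate differences over all genes was 0.69 between WT LPS and KO LPS and 0.50 between unstimulated WT and KO. Between groups of different state it ran from 0.01 to 0.33. Replicate numbers thus went together between genotypes within a state, and less so across states. With the replicate block the counts were 3, 4 and 11. That block holds 1 term shared by all 4 groups, so it does not model a pairing within a state. The comparisons between genotypes were not fitted as paired.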
